A study of Mus musculus with 31 samples.

Results

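ATAC-seq peaks that lie between genes but within reach of a gene, and that lack the AP-1 consensus at their summit, were examined in NIH-3T3 cells. Members were taken from the peak list of the parental line by 5 properties of the summit, the base with the most fragments in a peak. The summit lay outside all genes of the GENCODE annotation, 1 to 100 kb from the nearest transcription start site (TSS) of a protein-coding gene and more than 1 kb from any TSS. Distances are to the nearest TSS of any coding transcript. The summit base was not soft-masked, that is, not written in lower case as repetitive sequence in the reference. The window of 101 bp around it held no TGACTCA on either strand. Of 63456 peaks, 27590 had a summit outside genes, 17619 of these were 1 to 100 kb from a coding TSS, 16980 were also more than 1 kb from any TSS and 15060 had an unmasked summit. The consensus was present in 3666 of the 15060 windows (24.3%, 95% Wilson interval 23.7 to 25) and absent from 11394, which are the intergenic peaks with AP-1-free summits described here and make up 18% of all peaks. AP-1-free refers to the window alone, since 2161 of these peaks (19%) held the consensus elsewhere in the peak. Intergenic refers to GENCODE alone, since 1708 of these summits (15.0%) lay inside the bounds of a gene of the RefSeq annotation. The 3666 peaks with the consensus served as their counterparts.

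The study compared chromatin accessibility between NIH-3T3 lines that overexpress 13 TFs and control lines, and used the parental line to map accessible regions. Only this parental library was analysed here, and the other 30 samples were not used. NIH-3T3 is an immortalised mouse embryonic fibroblast line, and the parental cells carried no TF transgene. The labels give 50000 cells, 0.5 µM of Tn5 and 12 cycles of PCR and list no doxycycline for them, whereas the methods describe doxycycline treatment of NIH-3T3 cells in general. A single library gives no spread between replicates, and its peaks cannot stand in for replicates. No test between groups of peaks is therefore given, and all intervals are 95% intervals that cover counting error only.

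In ATAC-seq the transposase Tn5 inserts adapters into DNA that is free of nucleosomes, so fragments pile up over promoters, enhancers and insulators. AP-1, a dimer of FOS and JUN family proteins, occupies many enhancers in fibroblasts, where it is induced by serum and growth factors. Distal accessible sites without its consensus can hold sites of other factors, among them CTCF, a zinc-finger protein that marks insulators and the anchors of chromatin loops. The fibroblast label was checked by peaks within 1 kb of the TSSs of marker genes. Over all protein-coding genes, 53.7% had one. All 10 fibroblast markers had one, including Col1a1, Col1a2, Fn1, Pdgfrb, Twist1 and Prrx1. Peaks were also present for 2 of 6 epithelial markers (Krt8 and Grhl2), for 1 of 5 blood markers (Spi1), for 1 of 4 neuronal markers (Syn1) and for 3 of 4 endothelial markers (Pecam1, Cdh5 and Tek).

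The windows of 8 peaks with AP-1-free summits show the motifs that were more frequent at the summits than in the flanks. Each peak is the one with the most fragments among those that hold the motif, and is named by its nearest coding gene. The summits near Rgs2, Sertad2 and Ezh2 lay inside the bounds of a RefSeq gene. The sequences are from the plus strand of the RefSeq GRCm38.p6 assembly, which has the mm10 coordinates of the peaks, with the 101 bp centred on the summit and the motif, on either strand, in capitals.
Eef1b2, CTCF core (chr1:63181155-63181255): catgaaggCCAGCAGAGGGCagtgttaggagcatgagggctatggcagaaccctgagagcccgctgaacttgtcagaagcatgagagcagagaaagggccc
Glis2, GC box (chr16:4586664-4586764): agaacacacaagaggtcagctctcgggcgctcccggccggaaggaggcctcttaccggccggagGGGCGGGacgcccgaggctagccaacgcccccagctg
Scd3, CCAAT box (chr19:44248309-44248409): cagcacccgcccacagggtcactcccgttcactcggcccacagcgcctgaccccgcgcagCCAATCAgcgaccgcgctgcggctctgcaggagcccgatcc
Actr3, TEAD (chr1:125450592-125450692): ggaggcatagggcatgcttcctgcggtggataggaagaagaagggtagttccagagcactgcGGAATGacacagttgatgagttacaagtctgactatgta
Tmem243, NFI site (chr5:9068996-9069096): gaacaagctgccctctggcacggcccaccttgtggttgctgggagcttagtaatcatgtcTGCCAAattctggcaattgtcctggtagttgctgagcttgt
Rgs2, NRF2 and MAF site (chr1:143941589-143941689): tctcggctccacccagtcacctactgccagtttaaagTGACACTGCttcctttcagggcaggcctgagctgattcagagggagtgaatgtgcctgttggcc
Sertad2, E-box (chr11:20477674-20477774): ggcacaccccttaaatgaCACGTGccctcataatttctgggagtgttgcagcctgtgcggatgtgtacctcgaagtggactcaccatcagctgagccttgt
Ezh2, EGR (chr6:47651135-47651235): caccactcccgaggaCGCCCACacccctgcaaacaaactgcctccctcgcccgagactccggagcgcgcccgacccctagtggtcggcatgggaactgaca
The motif was not at the same place in each window. In the Eef1b2 window it lay towards one end, whereas in the Tmem243 window it lay close to the summit. The windows near Glis2, Scd3 and Ezh2 had a GC content of 71.3%, 72.3% and 67.3%, respectively, and that near Actr3 one of 49.5%.

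The peaks with AP-1-free summits were lower and narrower than their counterparts with the consensus. Height was taken as the fold enrichment of the authors' peak caller, the fragments at the summit over those expected locally, each with 1 added. The median was 5.34 (interval 5.25 to 5.43, quartiles 4.01 and 7.62) against 6.44 (6.30 to 6.57, quartiles 4.53 and 9.34) with the consensus, and the ratio of the medians was 0.829. By −log10 q, the significance of a peak given by the caller, the medians were 10.6 and 15.5 and their ratio 0.681. A fold enrichment of 10 or more was reached by 12.2% of the peaks with AP-1-free summits and 20.8% of those with the consensus. Over all peaks of the library the median was 6.04, and 20.1% reached 10. The median width was 276 bp, against 327 bp both with the consensus and over all peaks, and the median number of fragments at the summit was 25 (quartiles 18 and 41) against 31. Peaks with AP-1-free summits in introns, of which there were 15558, had a median fold enrichment of 5.38, with an interval of 5.28 to 5.48 that overlapped that of the intergenic ones. The 3393 intergenic peaks with AP-1-free summits more than 100 kb from a coding TSS had a higher median fold enrichment of 5.78 (5.71 to 5.98). Their fragments at the summit were not more, with a median of 24 (23 to 24) against 25 (25 to 26). The median of the fragments expected locally was 2.83 against 3.60. Just inside the limit, 90 to 100 kb from the TSS, 323 peaks had a median of 5.51, and just outside, at 100 to 110 kb, 253 peaks had one of 5.78.

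**Figure D1:**
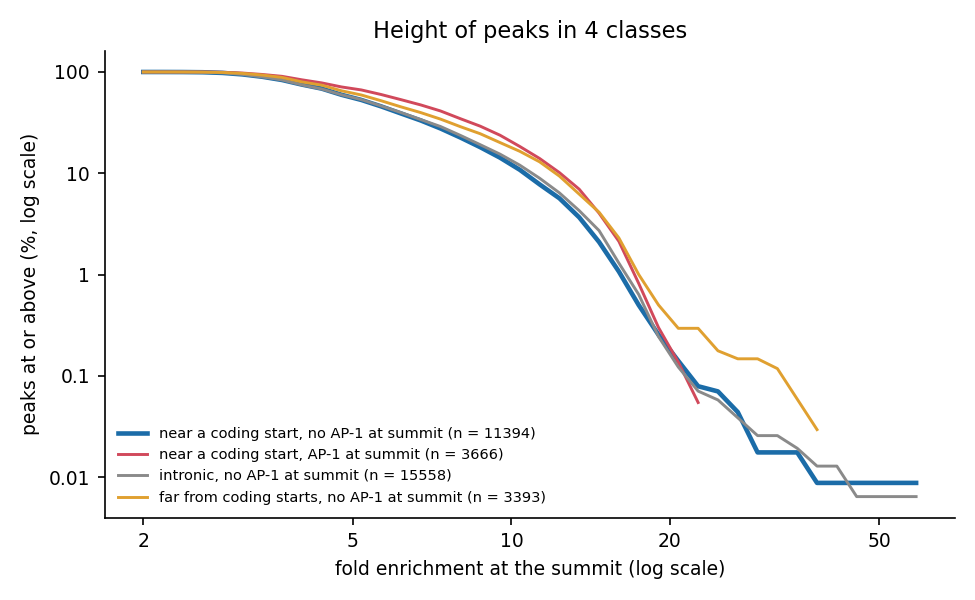
Share of peaks (%, log scale) at or above each fold enrichment (log scale) for 4 classes of peaks in the parental library; lines end at the last plotted value that a peak of the class reaches, and near and far refer to peaks between genes. The curve of the intergenic peaks with AP-1-free summits, median 5.34, runs close to that of intronic peaks with AP-1-free summits and below that of peaks with the consensus, median 6.44, up to a fold enrichment of about 20, beyond which it extends to 62.1 against 24.2.

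The highest peaks with AP-1-free summits mostly held some sequence that recurs in the genome, from 1.41% of the window near Gm6020 to 90.1% near Igf2bp3. The copies of each window in the reference were counted from all its sequences of 31 bases. Of the peaks with AP-1-free summits, 6.10% (5.67 to 6.55) had at least 1 such sequence in more than 1 place, against 7 of the 8 highest, 14 of the 20 highest and 27 of the 100 highest. None of the AP-1-free windows shared such a sequence with the mitochondrial genome. The windows of Pak3, Dpy19l1 and Gm10800 are shown because they share a sequence, and that of Igf2bp3 because most of it recurs.
Pak3, AP-1 with 1 mismatch (chrX:143483008-143483108): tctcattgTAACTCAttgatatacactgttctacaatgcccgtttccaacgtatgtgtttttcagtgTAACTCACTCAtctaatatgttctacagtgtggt
Dpy19l1, RUNX (chr9:24542056-24542156): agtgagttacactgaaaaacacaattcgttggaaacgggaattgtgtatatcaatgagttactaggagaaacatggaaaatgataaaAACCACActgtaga
Gm10800, RUNX (chr2:98665099-98665199): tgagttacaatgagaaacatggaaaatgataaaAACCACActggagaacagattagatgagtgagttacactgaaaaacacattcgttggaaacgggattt
Igf2bp3, no capitals (chr6:49236462-49236562): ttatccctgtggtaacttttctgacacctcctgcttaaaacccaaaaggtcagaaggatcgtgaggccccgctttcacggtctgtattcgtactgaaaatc
The highest peak lay 35533 bp upstream of Pak3, which encodes a p21-activated kinase, with a fold enrichment of 62.1 and 580 fragments over 110 bp. In its window 46.5% of the 31-base sequences recurred in the reference, in up to 8 places. Copies that the reference lacks are not in these counts, so they can be too low. The second, upstream of Dpy19l1, had a fold enrichment of 35.9 and 173 fragments, and the Pak3 and Dpy19l1 windows shared a run of 23 bases on one of the strands. Both shared 32 bases with the window downstream of Gm10800, which had the most fragments of all peaks with AP-1-free summits. There 1216 fragments gave a fold enrichment of 2.0, the lowest of all peaks with AP-1-free summits. The peak upstream of Igf2bp3, an RNA-binding protein gene, had a fold enrichment of 27.8, and 90.1% of the 31-base sequences in its window recurred. Those near Gm15097 and Tmem125 reached 29.2 and 26.9, with sequences found in up to 30 and 33 places. The part of repeated sequence in these heights was not tested.

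Among the 8 highest, only the peak downstream of Rpp21, a subunit gene of RNase P, had no recurring sequence, with a fold enrichment of 25.1 and 234 fragments (chr17:36231260-36231604). Its window had a GC content of 72.3% and 16 CpG. The next highest windows without recurring sequence, looked up after the values were seen, lay near Rmi1 with a fold enrichment of 21.3, Axin2 with 21, Rasa2 with 20.7, Gm21961 with 19.8, Kif21a with 19.6, Pigm with 19.5 and Mast4 with 19.4. The peak near Axin2, a target and inhibitor of Wnt signalling, had 444 fragments 68279 bp downstream (chr11:109011643-109012116). Of these 8 peaks, all but that at Gm21961 had a nearest coding gene with a peak at its TSS.

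The CTCF core was the motif with the largest ratio between summits and flanks. It was present in 728 summit windows (6.39%, 5.95 to 6.85) and on average in 10 windows 500 bp to either side, a ratio of 72.8. Among the counterparts with the AP-1 consensus it was present in 21 windows (0.573%, 0.375 to 0.874). It was found in 4.85% of the AP-1-free intronic windows, in 2.77% (2.27 to 3.38) of those more than 100 kb from a coding TSS and in 3.19% of all peaks. The orientation was even, with 361 peaks on the plus and 367 on the minus strand. The summit rarely lay on the core itself. In 75% (71.7 to 78.0) of these peaks it lay 20 to 40 bp from the centre of the core, and in 8.24% (6.46 to 10.5) within 10 bp. Read in the direction of the core, the summit lay past the core in 52.5% (48.8 to 56.1) and before it in 39.3% (35.8 to 42.9) of the peaks.

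Peaks with the CTCF core were of middle height. Their median fold enrichment was 5.30 (5.24 to 5.50), against 5.34 without the core, but their quartiles, 4.40 and 6.57, were closer together than the 3.95 and 7.75 without it. A fold enrichment of 10 or more was reached by 3.30% of the peaks with and 12.8% of those without the core. None of the 100 highest peaks and 5 of the 500 highest held it, and by deciles of fold enrichment its share was 11.3% in decile 6 but 2.28% in the lowest and 1.67% in the highest decile. The median width was 201 bp with and 281 bp without the core. The nearest other peak was also farther away, at a median of 8187 bp against 5450 bp, and 16.2% (13.7 to 19.1) against 24.3% (23.5 to 25.1) had a peak with the AP-1 consensus within 10 kb. The example downstream of Eef1b2, a translation elongation factor gene, had 103 fragments and a fold enrichment of 9.24 (chr1:63180875-63181392).

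**Figure D2:**
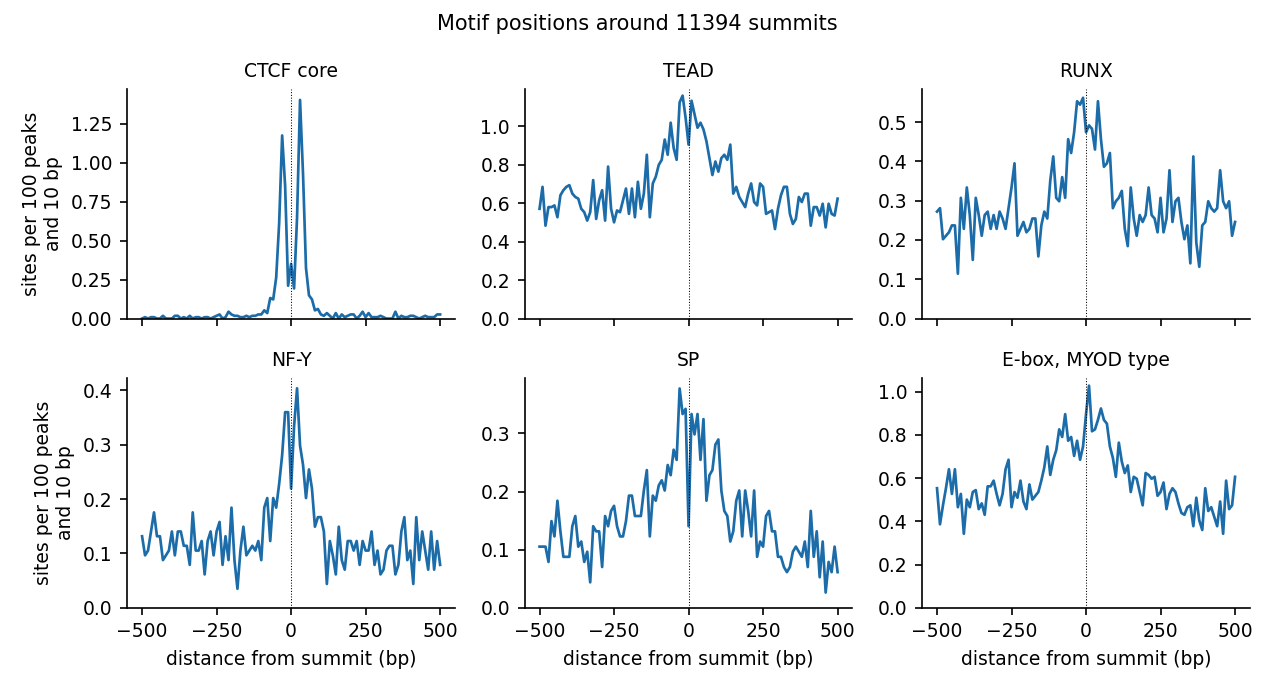
Sites of 6 motifs per 100 intergenic peaks with AP-1-free summits and 10 bp (y axes, from 0) against distance from the summit in bp, on either strand, where the E-box of MYOD type is CAGCTG. The CTCF core forms a pair of maxima about 30 bp to either side of the summit, with 134 sites 30 bp before it, 160 sites 30 bp after it and 40 at the summit.

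Motifs of promoter-type factors were also more frequent at the summits than in the flanks, with lower ratios for most of them where GC content was no higher at the summit. The GC box GGGCGGG, bound by SP and KLF factors, was in 2.55% (2.27 to 2.85) of the windows, at 3.33 times the flanks, against 1.17% (0.872 to 1.58) of the counterparts with the AP-1 consensus and 6.16% of all peaks. The CCAAT box CCAATCA, bound by NF-Y, was in 2.54% (2.26 to 2.84), at 2.45 times the flanks, against 0.982% (0.710 to 1.36) of the counterparts and 2.99% of all peaks. In the counterparts the NF-Y ratio was 0.878 (0.635 to 1.21). The EGR motif GTGGGCG was in 1.26% at a ratio of 3.36 (1.84% of all peaks). The CRE TGACGTCA, bound by CREB and ATF dimers, was in 29 windows (0.255%), against 0.503% of all peaks. Its ratio of 5.80 rests on a mean of 5 flanking windows, and over all peaks it was 9.38. GCCNNNGGC, bound by AP-2, was in 4.42% at a ratio of 2.16, against 5.32% of all peaks. The ETS motif CCGGAAG was in 0.886% at 1.91, against 2.41% of all peaks. In intronic AP-1-free windows, NF-Y was in 1.54% at 1.63, and more than 100 kb from a coding TSS in 2.48% at 2.40. In the same order, the GC box was in 2.03% at 2.56 and 0.914% at 1.77, and AP-2 in 4.28% at 2.21 and 3.01% at 2.79. EGR was in 0.964% at 2.54 and 0.766% at 3.06, and ETS in 0.681% at 2.06 and 0.560% at 2.38. Among the 3335 peaks with AP-1-free summits whose window had no higher GC content than its flanks, the ratio was 0.545 for the GC box, 0.811 for ETS, 1.03 for EGR and 1.11 for AP-2, and 2.27 for NF-Y. This choice used the same windows that were searched, and a motif of G and C raises the GC content of its own window. Part of the shift in these ratios is therefore fixed by the choice, and the rest was not tested. Members with the GC box were higher than those without it, with a median fold enrichment of 6.37 (6.04 to 7.08) against 5.30, and those with the CCAAT box had a median of 6.04 (5.55 to 6.82) against 5.31.

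The motifs of TEAD, NFI and RUNX factors and the E-box CAGCTG were each in more windows than any of these promoter-type motifs, with smaller ratios. CATTCC, bound by the TEAD partners of YAP and TAZ, was in 9.36% (8.84 to 9.91) of the windows at a ratio of 1.78, against 8.73% (7.86 to 9.69) with the AP-1 consensus, so that the intervals overlapped, and 8.39% of all peaks. The RUNX motif TGTGGTT was in 4.71% (4.34 to 5.12) at 1.88, against 3.63% (3.07 to 4.28) with the consensus and 4.34% of all peaks. Both were more frequent in the other AP-1-free windows. TEAD was in 10.3% and RUNX in 5.25% of the intronic ones, and in 10.8% and 6.01% of those more than 100 kb from a coding TSS. The NFI site TTGGCA was in 7.66% at 1.53 (6.85% of all peaks), and the E-box CAGCTG in 7.49% at 1.62 (7.13% of all peaks). In the intronic and the far AP-1-free windows, NFI was in 8.29% and 8.96% and CAGCTG in 7.21% and 7.07%. CACGTG, the E-box of MYC and USF, was in 1.88% at 1.57 (2.26% of all peaks), and the KLF motif GGGTGTG in 3.77% at 1.51 (3.81% of all peaks). TGACNNNGC, a site of NRF2 and small MAF proteins, was in 5.92% at 2.06, against 7.82% of all peaks. In the counterparts it was in 14.6%, where it can overlap the AP-1 consensus. The MEF2 motif was in 39 windows (0.342%, against 0.257% of all peaks) at a ratio of 2.52. In the 3335 peaks with no rise in GC content, the ratios were 1.75 for TEAD, 2.11 for RUNX, 1.44 for NFI and 1.58 for the NRF2 and MAF site, whereas they were 0.809 for CAGCTG and 0.827 for KLF. The limit given above for this choice by GC content holds here too. Of the 43 motifs examined, 19 reached 1.5 times the flanks, 14 of these in 100 windows or more.

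Other motifs were less frequent at the summits than in the flanks. The homeodomain core TAATTA was in 1.03% of the windows against 2.58% of the flanks, a ratio of 0.398, and in 0.919% of all peaks. The GATA motif AGATAA had a ratio of 0.634, the TCF and LEF motif ATCAAAG one of 0.540 and CAGGTG, the E-box of ZEB and SNAI repressors, one of 0.648. Over all peaks these ratios were also low, at 0.530, 0.556 and 0.528, and that of the homeodomain core was 0.341. The GC content of the windows had a median of 49.5%, against 45.0% in the flanks. In the 3335 peaks with no rise in GC content, the ratio was 1.54 for GATA, 1.13 for the homeodomain core and 26.0 for the CTCF core. A choice of windows by GC content favours motifs of A and T at the summit over those of G and C. These shifts too are therefore in part fixed by the choice. None of the 43 motifs was present in 2189 windows (19.2%, 18.5 to 19.9), against 35.2% of the flanks, and these peaks had a median fold enrichment of 5.02.

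**Figure D3:**
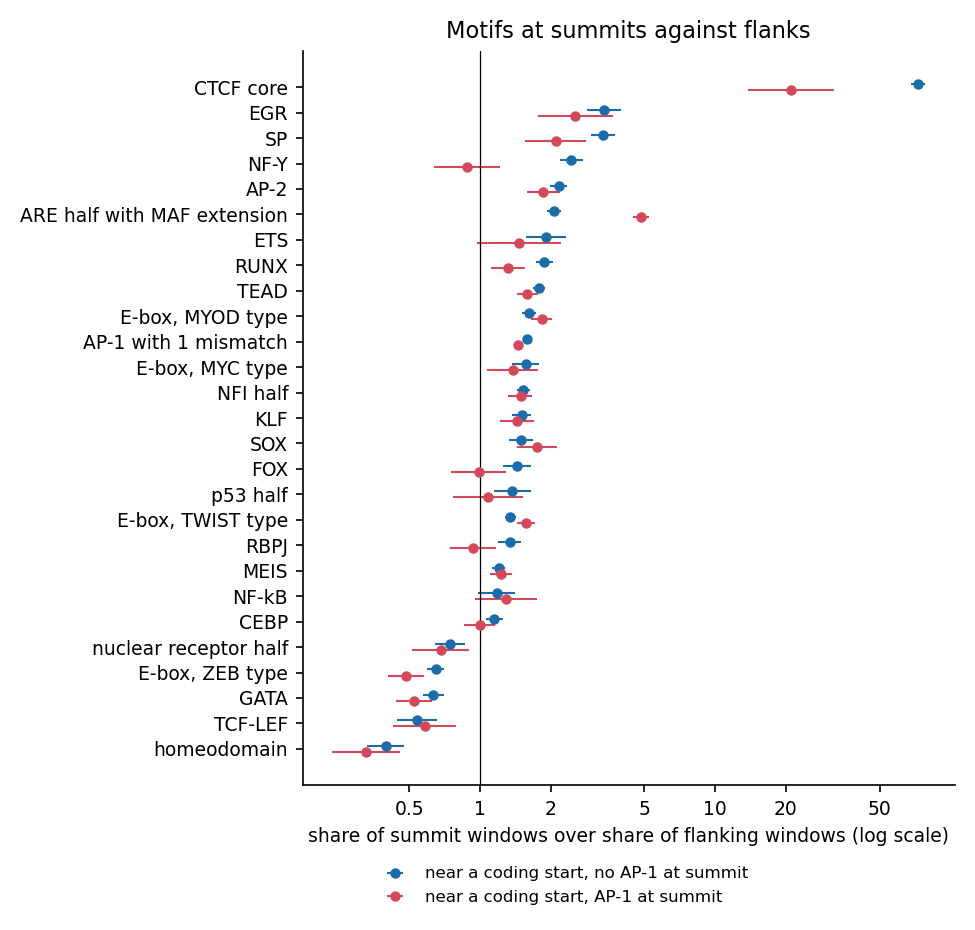
Share of summit windows over share of flanking windows (log scale) for motifs in 100 or more AP-1-free windows, in peaks with AP-1-free summits and in peaks with the AP-1 consensus; bars are 95% Wilson intervals of the summit share and leave out the error of the flanks. The CTCF core is at 72.8 against 21, but these rest on a mean of 10 and 1 flanking windows, too few to compare the ratios. NF-Y is at 2.45 against 0.878, and the E-box of MYOD type is CAGCTG, with CAGATG as the TWIST type, CACGTG as the MYC type and CAGGTG as the ZEB type; ARE marks the NRF2 and MAF site.

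Sequences one base away from the AP-1 consensus were present in 4686 of the AP-1-free windows (41.1%, 40.2 to 42.0) and in 25.9% of the flanks. Of all peaks, 37.6% held such a sequence, as did 45.2% of the AP-1-free intronic windows and 48.5% of those more than 100 kb from a coding TSS. The ratio to the flanks differed between the 1-mismatch sequences. TGACTAA was in 728 windows (6.39%) at 5.49 times the flanks, TGAATCA in 764 (6.71%) at 5.34 times, CGAGTCA in 141 at 4.55 times and TGAGTAA in 452 (3.97%) at 4.11 times. Of all peaks, 5.13% held TGACTAA, 5.52% TGAATCA and 3.43% TGAGTAA. By contrast, TGAGCCA had a ratio of 0.997 and TGAGACA one of 0.938. The same sequences were also raised in the counterparts, where TGACTAA had a ratio of 3.92 and TGAATCA one of 3.67 beside the consensus itself. Peaks with a 1-mismatch sequence had a median fold enrichment of 5.54 (5.52 to 5.75) against 5.25 without. In the 2161 peaks that held the consensus outside the window of 101 bp, the median fold enrichment was 7.02 and the median width 423 bp, against 5.09 and 250 bp for the 9233 peaks with no consensus anywhere. Between the lowest and the highest decile of fold enrichment, this share went from 10.2% to 41%, that of 1-mismatch sequences from 38.0% to 50.7% and that of TEAD from 8.42% to 12.1%. A wider peak offers more sequence to search, and the part of width in the first of these shares was not tested.

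**Figure D4:**
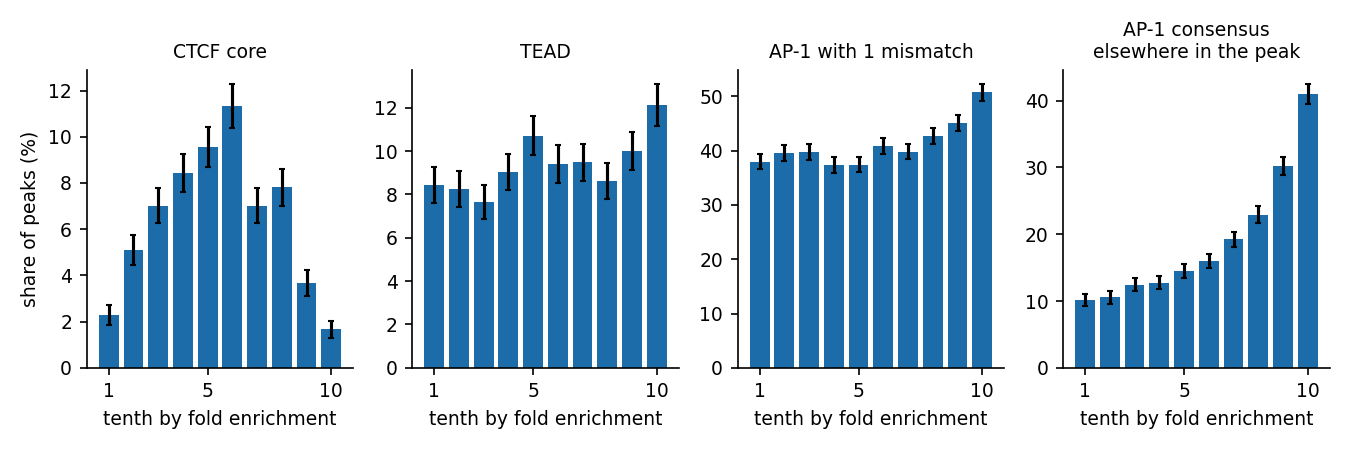
Share (%) of intergenic peaks with AP-1-free summits that have a motif in the summit window, or the AP-1 consensus elsewhere in the peak, in deciles of the peaks by fold enrichment from lowest (1) to highest (10); bars are ± 1 binomial SE. The CTCF core is most frequent in decile 6 (11.3%), whereas the consensus elsewhere in the peak reaches 41% in the highest.

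When all sequences of 7 bases were counted, GC-rich sequences and 1-mismatch sequences of AP-1 were among those with the highest ratios. Among 1737 sequences present in 200 or more AP-1-free windows, the median ratio to the flanks was 1.20, and 107 reached 2 or more. The 10 with the highest ratios were GCGCCCC (8.24), CGCCCTC (7.55), AGCGCCA (6.67), CCACTAG (6.19), CAGCGCC (6.15), TGACTAA (5.49), TGAATCA (5.34), GCGCCAC (5.33), ATGACTA (4.63) and ATTAGTC (4.39). Of the 591 windows with CCACTAG, 261 also held the CTCF core, and without the peaks that hold the core its ratio was 3.71. The core was present in 41 of the 202 windows with GCGCCCC, 88 of 287 with CGCCCTC and 38 of 230 with AGCGCCA. It was present in 43 of 249 with CAGCGCC and 48 of 272 with GCGCCAC. Without the peaks that hold the core, the ratios were 7.0, 5.53, 6.0, 5.57 and 4.67, in that order. The ratios of TGACTAA and TGAATCA were 5.84 and 5.83 without those peaks. CTCF sites that differ from the core stay in these counts, so the ratios cannot tell the GC-rich sequences or CCACTAG apart from such sites.

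Peaks with more CpG at the summit were higher, wider and closer to genes. The AP-1-free windows had a mean of 1.72 CpG against 1.08 in the flanks, and 7.10% of them had 5 or more, against 2.40% of the counterparts and 18.2% of all peaks. The median fold enrichment was 5.12 with no CpG in the window, 5.32 with 1 to 2, 5.52 with 3 to 4 and 6.22 with 5 or more. The 809 peaks with 5 or more had a median width of 373 bp, against 255 bp for the 3131 peaks with no CpG. Their median distance to a coding TSS was 15576 bp, against 23322 bp. The GC box was present in 13.7% of the CpG-rich windows. The summit lay inside the bounds of a RefSeq gene, though outside all GENCODE genes, in 22.5% of them, against 15.0% of all peaks with AP-1-free summits. The examples upstream of Ezh2, the methyltransferase of the Polycomb repressive complex, and of Glis2, a zinc-finger TF, had 9 and 10 CpG in the window.

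The density of peaks with AP-1-free summits fell with distance from coding genes beyond 20 kb. It was counted per Mb of eligible sequence, all bases that meet the rule without its AP-1 part, which came to 377.9 Mb and gave 30.1 peaks per Mb. At 1 to 2 kb from the TSS the density was 35.6 ± 1.8 (Poisson SE), at 2 to 5 kb 34.0 ± 1.1, at 5 to 10 kb 36.1 ± 0.91 and at 10 to 20 kb 36.6 ± 0.74. It was 30.1 ± 0.50 at 20 to 50 kb and 22.1 ± 0.45 at 50 to 100 kb. Between 1 and 10 kb it was 1.60 times (1.51 to 1.68) that between 50 and 100 kb. The share of peaks with the AP-1 consensus changed the other way, though not at each step, from 19.4% (16.1 to 23.2) at 1 to 2 kb to 26.8% (25.3 to 28.4) at 50 to 100 kb. The CTCF core was in 7.59% of the AP-1-free windows in the nearest and 4.44% in the farthest of these intervals. The median distance was 21359 bp, against 24087 bp for the counterparts. Upstream sequence held 64.6% of the peaks with AP-1-free summits, but per Mb the densities upstream and downstream were 30.6 ± 0.36 and 29.4 ± 0.46. Among the autosomes the density ranged from 20.5 on chromosome 14 to 41.8 on chromosome 15, and it was 8.31 ± 0.55 on chromosome X.

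Peaks with AP-1-free summits were denser next to genes with an accessible promoter. Of the 21938 protein-coding genes, 53.7% had a peak no more than 1 kb from a TSS, and these genes were nearest to 48.9% of the eligible sequence. They were the nearest coding genes of 67.8% (67.0 to 68.7) of the peaks with AP-1-free summits, against 70.5% (69.0 to 71.9) of the counterparts and 74.4% of the intronic peaks with AP-1-free summits. Per Mb this came to 41.8 ± 0.48 peaks next to open and 19 ± 0.31 next to closed promoters. The median fold enrichments of these groups were 5.36 and 5.27. The CTCF core was in 5.62% of the windows next to open and 8.02% of those next to closed promoters, whereas TEAD motifs were in 9.47% and 9.14%. The nearest other peak lay at a median of 5598 bp, and a peak with the AP-1 consensus was within 10 kb of 23.7% (23.0 to 24.5) of the peaks with AP-1-free summits and 27.7% (26.3 to 29.2) of the counterparts.

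Of all protein-coding genes, 5760 (26.3%) were the nearest to at least 1 peak with an AP-1-free summit. There were 422 genes with 5 or more, which together held 23.3% of the peaks, and 24 with 10 or more. Col1a2, which encodes the alpha 2 chain of type I collagen, had the most, with 17 peaks over 95.9 kb of eligible sequence (ENSMUSG00000029661.16, chr6:4504814-4541544). The lowest of the 17 had a fold enrichment of 2.55, the median was 7.31, and the highest, at 15.1, lay 72472 bp upstream with 114 fragments (chr6:4432071-4432759). The nearest Col1a2 peak, 1488 bp upstream, had a fold enrichment of 3.54, and the farthest, 96927 bp upstream, held the CTCF core and had one of 10.5. Only 2 further peaks near Col1a2 met the rule with the AP-1 consensus.

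The other genes with many peaks were of mixed function. Irf2bpl had 14, and Emp1, Gm21897, Irf2bp2 and Rbpj had 12 each. Rbpj encodes the DNA-binding effector of Notch signalling, and its peaks had a median fold enrichment of 8.02. Azin1, Rgs2, Tmco5, Trib1 and Ywhaz had 11, and 1700001O22Rik was the first of the genes with 10. Of these 12 genes, all but Gm21897 and Tmco5 had a peak at their TSS. Per Mb of eligible sequence, the densities ranged from 95.4 peaks at Rgs2, a regulator of G-protein signalling, to 215 at Irf2bpl. Col1a2 had 177 and Rbpj 142, against 30.1 over all genes.

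Among the gene lists, the density was highest next to genes of the fibroblast matrix, though not beyond the error. The lists of ribosomal protein, epithelial, actin and SRF, and AP-1 genes, at 67.8, 66.7, 63.0 and 62.3 per Mb, overlapped it within ± 1 SE. Of 32 such genes, 24 (75%) had a peak with an AP-1-free summit, against 26.3% of all protein-coding genes. Their median eligible sequence per gene was 39.1 kb, against 7.35 kb over all coding genes. The list held 105 peaks, 17 of them at Col1a2, or 76.3 ± 7.4 per Mb (Poisson SE). After Col1a2, the genes with the most were Thbs2, a matrix glycoprotein gene with 8 peaks, and Mmp2, a gelatinase gene with 7. Matrix genes also had 39 peaks with the AP-1 consensus, and 26 of the 32 had a peak at their TSS. Genes of mesenchymal TFs had a peak in 27 of 39 cases (69.2%), but with more eligible sequence their density was 37.1 ± 4.4 per Mb. Klf6 had 10, Ets1 8 and Twist2, a bHLH TF of mesenchyme, 7. Of the 28 growth factor receptor and ligand genes, 16 had a peak, at 42.5 ± 5.8 per Mb, led by Csf1 with 7 and by Igf1r and Tgfb2 with 6 each.

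Vcl and Vim, among the genes of the actin cytoskeleton and SRF targets, had 5 peaks each and Actb 4. This list had a peak in 9 of 25 cases (36%), against 26.3% of all coding genes, with 63.0 ± 13 per Mb. For Hippo pathway genes and TEAD targets these values were 9 of 20 and 47.5 ± 9.7. Ccn1, a matricellular protein gene induced by YAP, had 5 peaks, and Fjx1 and Amotl2 had 5 and 4. The highest at Ccn1 lay 35301 bp upstream, with a fold enrichment of 13.2 and 108 fragments (chr3:145685007-145685593). Genes of AP-1 itself and its partners had a peak in 7 of 13 cases, at 62.3 ± 17 per Mb. At Fos, 5 peaks with AP-1-free summits had fold enrichments of 11.8, 5.83, 10.5, 3.20 and 2.85, from 18476 bp upstream to 24762 bp downstream. Atf3 had 3 and Fosl2 2.

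Lists of genes that fibroblasts do not typically use did not all have low densities. Neuronal genes had a peak in 6 of 20 cases and 16.9 ± 5.4 per Mb, blood genes in 5 of 19 and 47.3 ± 14, and liver genes in 6 of 20 and 38.9 ± 10. These shares of genes, 30%, 26.3% and 30%, were close to the 26.3% of all coding genes. Epithelial genes reached 9 of 20 and 66.7 ± 14, within the error of the matrix genes. Grhl2, an epithelial TF, had 5 peaks, and Epcam and Krt18 had 3 each. Among the neuronal genes, Nefl had 3 and Snap25 and Stmn2 had 2 each. Vav1 had 5 peaks in 10.7 kb of eligible sequence, and Ptprc and Tal1 had 2 each. Cyp7a1, the rate-limiting enzyme of bile acid synthesis, had 4, and Apob and Foxa2 had 3 each. Genes of ribosomal proteins, with a peak at all 28 TSSs, had peaks with AP-1-free summits in 12 cases and 67.8 ± 16 per Mb, led by Rpl14 and Rpl3 with 4 and Rps24 with 2. The genes of the 13 overexpressed TFs had a peak in 6 cases and 41.9 ± 12 per Mb, led by Hlf with 4, T with 3 and Nanog with 2. Assignment to the nearest TSS does not show which gene a peak acts on.

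**Figure D5:**
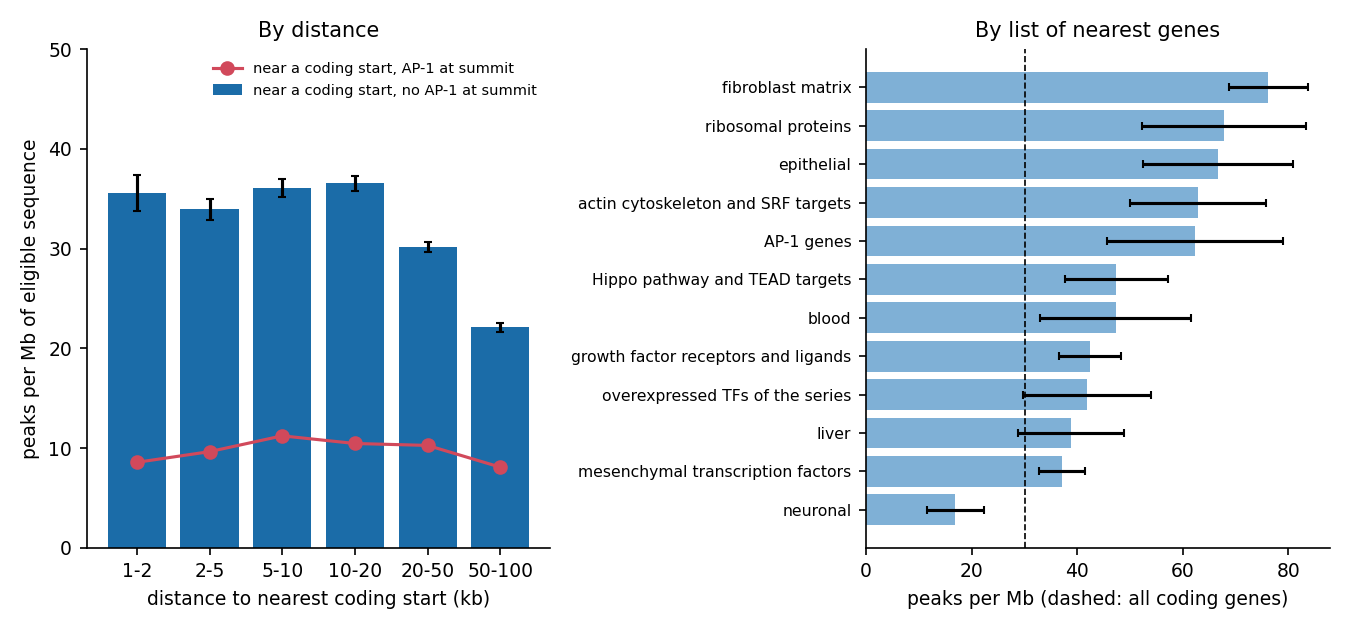
Left, intergenic peaks with AP-1-free summits (bars, ± 1 Poisson SE) and peaks with the AP-1 consensus (line) per Mb of eligible sequence by distance to the nearest coding TSS in kb; right, peaks with AP-1-free summits per Mb next to the genes of 12 lists (± 1 Poisson SE), with the value for all coding genes, 30.1, as a dashed line. The density is highest at 10 to 20 kb (36.6) and lowest at 50 to 100 kb (22.1), and among the lists it is highest for the fibroblast matrix (76.3) and lowest for neuronal genes (16.9). The ribosomal protein, epithelial, actin and AP-1 lists overlap the matrix list within ± 1 SE.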

How the data were processed

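ATAC-seq was analysed for 1 library of parental NIH-3T3 cells. According to the methods, the authors kept uniquely mapped reads of an alignment to mm10, removed duplicates and called peaks in paired-end mode. For ChIP-seq they also removed peaks that overlapped input peaks or the ENCODE blacklist, and they refer to that section for the ATAC-seq peaks. Whether the deposited list was filtered in this way was not tested. The submitters' processing notes name STAR 2.5.3a, Picard, SAMtools and MACS2 2.1.1.20160309. No shift of fragment ends for the Tn5 insertion is described. The deposited list gives for each peak a fold enrichment, which is a ratio of fragments to the local expectation, a score, and −log10 of the p and of the q. The number of reads of the library is not given in the list. Fragments at the summit were solved from the fold enrichment and the −log10 p, a step tested on simulated data, and only 2 peaks were more than 0.02 away from a whole number. The lowest was 10, and the background was 2.81 expected fragments.

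Peaks were matched to GENCODE M21 and to the GRCm38.p6 sequence, both of the mm10 build. A motif counted once in a window of 101 bp, whichever its strand, at the summit and 500 bp to either side. Those of CTCF, MEF2, SRF, NF-kB, EBF, p53, steroid receptors and the NFI palindrome are given by name. Recurring sequences were counted in 66 sequences of the reference, its chromosomes, unplaced and unlocalised contigs and the mitochondrial genome. Shares have Wilson intervals and medians have intervals from binomial order statistics. Intervals and SE cover counting error only, and no statistical test was run. The tools were SciPy 1.17.1, pandas 2.3.3, NumPy 2.4.6, matplotlib 3.10.9 and Python 3.11.15. Named were the 8 highest peaks with less than 50% of soft-masked bases, for each motif at 1.5 times the flanks or more in at least 100 windows the peak with the most fragments, the 12 genes with the most peaks, the 3 with the most in each of 12 gene lists (ties by symbol) and the 10 leading sequences of 7 bases in at least 200 windows. The peaks, motifs and lists were chosen with earlier results of these data known. Alternatives were stricter thresholds on peaks, wider windows without AP-1, masked summits, gene starts only and other distances, flanks and overlaps. The other 30 samples were not used.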

Additional observations from a re-analysis of the deposited data

How the results depend on the processing

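No paired analysis was possible because the report rests on 1 library. Of 83 values recomputed under alternatives, 66 stayed within the counting error of the reported value, or within 1.5 times for counts, 17 moved beyond it and 0 changed direction. The limit for counts is wide. The 66 include the number of motifs at 1.5 times the flanks or more in peaks with no higher GC content than the flanks, 13 against 19. With peaks of a q of 1e-05 or below, the median fold enrichment was 6.08. With a fold enrichment of 5 or more, 6274 peaks with AP-1-free summits were left, their median was 7.35, the ratio to the peaks with the consensus 0.908, and the density ratio of 1 to 10 kb over 50 to 100 kb 1.37. With no consensus anywhere in the peak, the median was 5.09, the ratio of medians 0.765, the density ratio 1.70 and the share with an AP-1 peak within 10 kb 22.7%. This last share was 12.5% within 5 kb and 40.2% within 20 kb. The density ratio was 1.70 with masked summits kept and 1.46 with gene starts only. The share next to a gene with a promoter peak was 66.2% with gene starts only, 61.1% with a peak over the TSS itself and 68.9% without recurring sequence in the window. The median GC content was 48.8% in windows of 100 bp to either side. Thresholds on height and windows of another size change these values by construction. For the others the cause was not tested. Leaving out peaks in RefSeq genes, with the CTCF core, with recurring sequence or with a higher GC content than the flanks was chosen after seeing the data. The density ratio was not recomputed without RefSeq genes, without recurring sequence or for 1 to 50 kb, since the eligible sequence was not counted for the first 2 and the farther interval is left out in the third. Summits lie under a median of 25 fragments, which limits the precision of single heights.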
